A study of Homo sapiens with 6 samples.

Results

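The mevalonate pathway, the sterol pathway that follows it, the isoprenoid branches and the genes of cholesterol uptake and transport were examined in SiHa PR cells with and without P4HA3 overexpression. SiHa is a long-established line from a human squamous carcinoma of the cervix, and SiHa PR are the parental cells of a highly lymph node metastatic subline. P4HA3 encodes a catalytic subunit of collagen prolyl 4-hydroxylase. RNA-seq counts were available for 3 control libraries and 3 P4HA3 overexpression libraries, in which P4HA3 was the only stated difference. The sample names give the controls only as SiHa PR, while the study describes vector controls. Its methods place the P4HA3 cDNA in a lentiviral pCDH vector and do not say whether the cells were a pool or a clone. Treatment, time and culture density are given for neither group. Members were chosen by gene symbol, as 30 of the 60664 genes in the count table, and every symbol matched 1 Ensembl gene. They comprised 7 early mevalonate genes, 12 late sterol genes, 6 isoprenoid branch genes and 5 uptake and transport genes.

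The mevalonate pathway builds 5-carbon isoprene units from acetyl-CoA and joins them into farnesyl diphosphate. Squalene synthase commits farnesyl diphosphate to sterols, and the later enzymes cyclize squalene to lanosterol and trim it to cholesterol. Other enzymes use farnesyl diphosphate for geranylgeranyl groups on proteins, dolichol for N-glycosylation and the side chain of ubiquinone. Cells also take up cholesterol in lipoproteins and move it out of lysosomes through NPC1 and NPC2. Most genes of sterol synthesis are targets of the transcription factor SREBP-2, which binds sterol regulatory elements together with NF-Y and Sp1.

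Promoters from RefSeq (GRCh38.p14), each covering 250 bases before to 50 bases after a transcription start, were found for 27 of the 30 members, in 35 windows of 300 bases. ACAT2, FDFT1 and SQLE were without an entry. Both strands were searched for CCAAT, the core of an NF-Y site, for GGGCGG, the core of an Sp1 site, and for TCACNCCAC, a strict form of a sterol regulatory element. The CCAAT letters were in 22 of the 35 windows (62.9%), against 34.6% of all 35114 promoters, and in 20 of 27 members (74.1%), against 42.7% of the 10982 tested genes with a promoter. The GGGCGG letters were in 31 windows (88.6%), against 45.0% of all promoters, and in 25 of 27 members (92.6%), against 77.4% of tested genes. The strict sterol element was in 0 of the 35 windows, against 1.13% of all promoters. It was in 0 of the 27 members, against 1.36% of tested genes, a share at which 0 matches say little. No match says only that these letters are not in this window. A window with CCAAT was present for 8 of the 8 members called lower that had a promoter, for 2 of the 2 called higher, and for 9 of the 16 that were tested and not called. By uncorrected fold changes, the 4 sequences below are those of the member that fell most in the early mevalonate genes (MVD), the member that fell most in the late sterol genes (DHCR7), the member that rose most (SC5D) and a GC-poor member that fell (MSMO1). Each is given in the direction of transcription, with CCAAT or its reverse complement in capitals. The MVD window is chr16:88663042-88663341 on the minus strand, the DHCR7 window chr11:71448344-71448643 on the minus strand, the SC5D window chr11:121292521-121292820 on the plus strand and the MSMO1 window chr4:165327419-165327718 on the plus strand. DHCR7 and SC5D each had another window. With the correction for GC content and length described below, IDI1 (-0.34), MSMO1 (-0.53) and TM7SF2 (0.52) had larger changes than MVD, DHCR7 and SC5D.
MVD: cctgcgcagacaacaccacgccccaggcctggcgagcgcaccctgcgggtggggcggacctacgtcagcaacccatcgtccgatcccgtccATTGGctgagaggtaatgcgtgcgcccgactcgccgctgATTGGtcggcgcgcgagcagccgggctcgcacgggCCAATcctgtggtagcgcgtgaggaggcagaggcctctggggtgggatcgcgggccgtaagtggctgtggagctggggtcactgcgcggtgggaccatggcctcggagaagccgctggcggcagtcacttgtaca
DHCR7: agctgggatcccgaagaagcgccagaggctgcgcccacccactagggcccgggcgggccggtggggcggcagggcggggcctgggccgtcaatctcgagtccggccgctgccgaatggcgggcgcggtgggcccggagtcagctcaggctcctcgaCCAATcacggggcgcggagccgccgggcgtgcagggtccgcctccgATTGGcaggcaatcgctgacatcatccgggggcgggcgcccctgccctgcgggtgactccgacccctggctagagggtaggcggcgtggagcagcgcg
SC5D: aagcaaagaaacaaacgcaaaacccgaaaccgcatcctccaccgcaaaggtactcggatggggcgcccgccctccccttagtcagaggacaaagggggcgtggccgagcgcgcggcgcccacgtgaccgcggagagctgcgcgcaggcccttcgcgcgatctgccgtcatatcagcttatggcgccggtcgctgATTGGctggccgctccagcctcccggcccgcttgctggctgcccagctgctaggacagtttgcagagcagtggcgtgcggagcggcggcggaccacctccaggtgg
MSMO1: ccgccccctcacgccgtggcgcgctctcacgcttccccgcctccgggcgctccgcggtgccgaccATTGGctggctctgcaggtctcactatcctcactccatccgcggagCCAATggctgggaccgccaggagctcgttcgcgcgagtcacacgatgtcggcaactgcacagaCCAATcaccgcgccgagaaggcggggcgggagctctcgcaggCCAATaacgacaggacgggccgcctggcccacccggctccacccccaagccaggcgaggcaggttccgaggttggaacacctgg
The capitals mark 3 matches in MVD, 2 in DHCR7, 1 in SC5D and 4 in MSMO1. The member that rose and the 3 that fell therefore all carried these letters within the window.

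Total counts lay between 21773488 and 24939948 per library, and libraries of the same group were not equal within counting error (chi-square per degree of freedom 5.17 to 17.8). P4HA3 was at 3.53, 2.91 and 3.80 normalized CPM in control replicates 1, 2 and 3 and at 1930, 1990 and 1940 CPM in overexpression replicates 1, 2 and 3, as the labels state. The labels of the cells were checked against marker lists. Of 13 genes for a cervical squamous carcinoma line, 8 were above 1 CPM in every library, led by KRT17, KRT7 and KRT8, and their sum was 12100 to 13800 CPM in control cells and 11300 to 12900 CPM with overexpression. Of the 11 tested, 5 were lower, namely KRT6A, KRT17, KRT18, CDH1 and CDKN2A, with log2 fold changes from -1.26 (KRT6A) to -0.27 (CDKN2A). TP63 and KRT5, which mark squamous and basal cells, were near 0. The growth protocol in the labels describes uterine smooth muscle, but the smooth muscle genes MYH11, DES and CNN1 were near 0. The list of 10 summed to 104 to 115 CPM in control cells and 112 to 130 CPM with overexpression. Most of that was SMTN, at 85.2 to 98.1 CPM and 86.6 to 101 CPM. ACTG2 was uneven between libraries. It had 0, 1 and 30 counts in control replicates 1 to 3 and 40, 1 and 44 in overexpression replicates 1 to 3. Of the smooth muscle genes TAGLN was higher (log2 fold change 0.96, adjusted p = 0.000436). All 8 fibroblast markers were above 1 CPM, with sums of 189 to 200 CPM and 150 to 191 CPM. The 8 leukocyte and endothelial markers summed to 93.9 to 113 CPM in control cells and 36.4 to 52.3 CPM with overexpression. Most of that sum was CD14, and PTPRC, CD3E, MS4A1 and CDH5 were at or near 0. The part of these markers in the results below was not tested. In bulk RNA, fewer cells of a type and less RNA per cell cannot be told apart.

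With P4HA3 overexpression, 3 of 7 early mevalonate and 5 of 12 late sterol genes fell, SC5D of the late sterol genes rose, and 1 of the 6 isoprenoid branch genes was called. Of the 30 members, 29 passed the filter on low counts and were tested by edgeR's quasi-likelihood test. STARD4, a carrier of cholesterol in the cytosol, was the exception, with 3 to 6 counts per control library and 5 to 10 per overexpression library. At an adjusted p under 0.05, 9 members fell (31.0%), against 11.4% of the 15130 genes tested, and 2 rose (6.9%), against 9.36%. The median log2 fold change was -0.16 over the members and 0.006 over all genes tested. All 3 overexpression libraries lay below all 3 control libraries for 12 members (41.4%), against 20.4% of all genes, and above them for 6 members (20.7%), against 19.7%. The members took 0.213% to 0.217% of all counts in the control libraries and 0.188% to 0.190% in the overexpression libraries, without overlap. Within a group the median coefficient of variation of a member was 4.81% in control cells and 5.94% with overexpression, and GGPS1 varied most in both (22.3% and 19.5%).

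**Figure D1:**
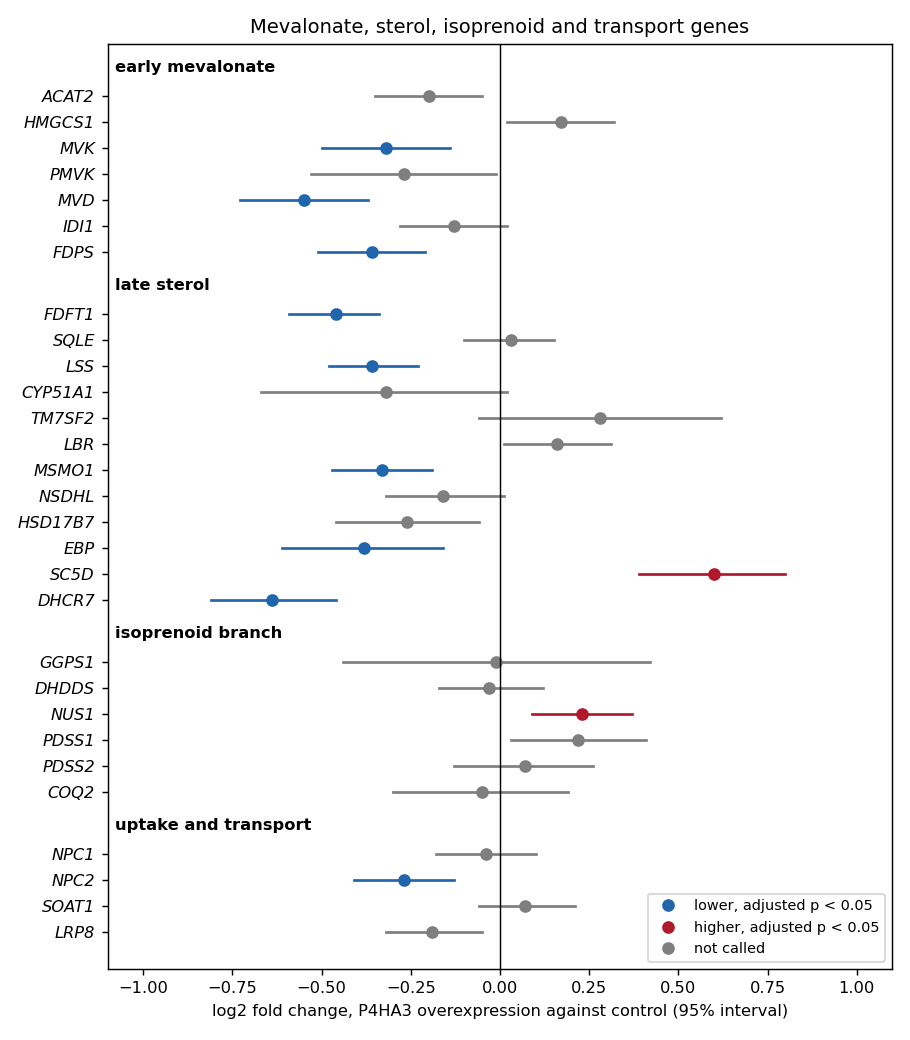
Log2 fold change of each of the 29 tested members (x axis, P4HA3 overexpression against control, 3 libraries each) with its 95% interval, in pathway order from top to bottom. Blue members were called lower and red members higher at an adjusted p under 0.05, and the intervals of MVD, FDFT1, LSS and DHCR7 on one side and SC5D on the other lie farthest from 0.

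Fold changes followed GC content in these libraries. Spearman's rho between log2 fold change and GC content was -0.581 across all 15107 tested genes with an annotated GC content and -0.507 across the 29 members, which share the same 6 libraries and are not independent replicates. In single libraries the deviation from the mean of the library's own group correlated with GC content between -0.543 (control replicate 3) and 0.466 (overexpression replicate 1). Both signs occurred in both groups, but deviations from a group mean balance out within the group. These signs therefore say nothing about the trend between the groups. After removal of the trend of every library on GC content and transcript length, the correlation over the members was -0.0484, 13 members were lower (44.8%, against 9.29% of all genes) and 2 were higher (6.9%, against 9.37%). This correction removes any part of a group difference that follows GC content or length, whatever its origin. Of the 9 members called lower, 8 were also called lower with it, and MVK was not. SC5D was called higher in both, NUS1 only without the correction and TM7SF2 only with it. ACAT2, IDI1, CYP51A1, HSD17B7 and LRP8 were called lower only with it. The median of the members was -0.16 with the correction as well. 

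**Figure D2:**
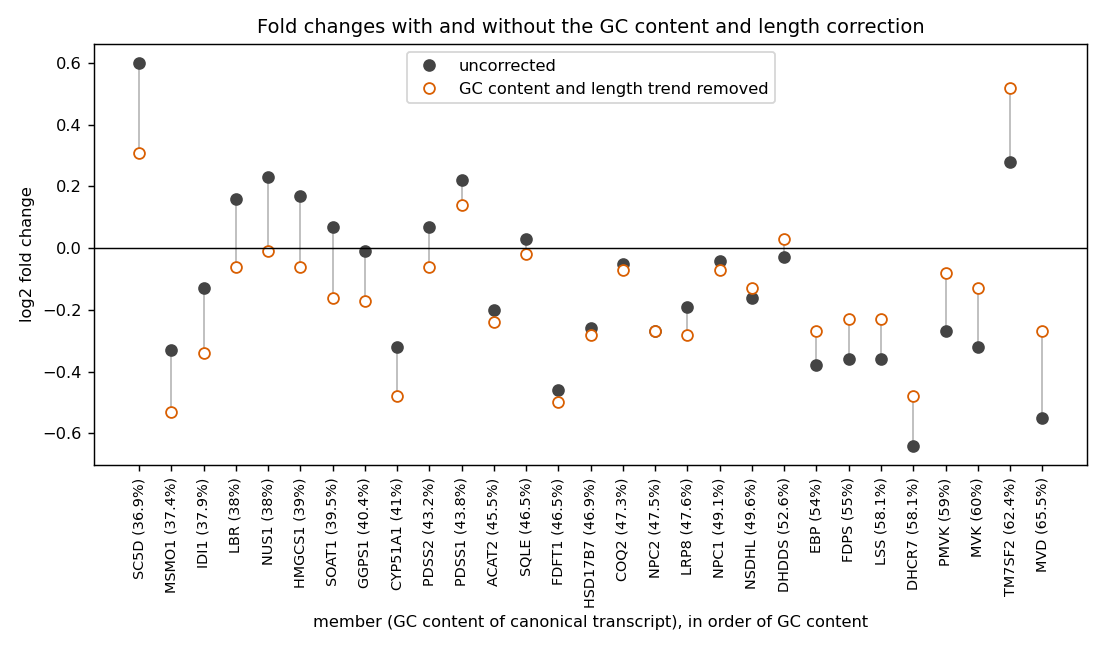
Log2 fold change (y axis) of the 29 tested members without correction (filled points) and after the GC content and length correction (open points), ordered along the x axis by the GC content of the canonical transcript. GC-poor members such as SC5D (36.9%) and MSMO1 (37.4%) moved down with the correction, and GC-rich members such as MVD (65.5%) and TM7SF2 (62.4%) moved up.

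Among the 7 early mevalonate genes, 3 fell, 0 rose and 4 were not called, with a median log2 fold change of -0.27 (-0.23 with the correction). The 3 that fell were MVD, FDPS and MVK. DESeq2 and limma-voom also called 3 lower and 0 higher. At an unadjusted p under 0.05 in edgeR 5 were lower and 1 was higher. Of the 15130 genes tested, 5854 passed that unadjusted limit, both directions together. The medians of the 7 genes against the control mean were -0.19, -0.45 and -0.30 in overexpression replicates 1, 2 and 3, on the log2 scale, and between -0.07 and 0.04 in the control libraries.

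MVD (ENSG00000167508, chromosome 16 of GRCh38, 88651935 to 88663161, minus strand) encodes mevalonate diphosphate decarboxylase, which makes isopentenyl diphosphate. Its expression was 174, 182 and 158 CPM in control replicates 1, 2 and 3 and 129, 105 and 117 CPM in overexpression replicates 1, 2 and 3. The highest overexpression library was below the lowest control library, and the mean was 68.3% of control (171 ± 12.2 and 117 ± 12 CPM, SD, n = 3). The log2 fold change was -0.55 (adjusted p = 0.00275, standard error 0.0811). With the GC and length correction it was -0.27 (adjusted p = 0.000497). FDPS (ENSG00000160752, chromosome 1, 155308748 to 155320666, plus strand) encodes farnesyl diphosphate synthase, which supplies both the sterol and the isoprenoid branch. It was at 210, 211 and 195 CPM in control cells and 174, 149 and 158 CPM with overexpression. The groups did not overlap, with a log2 fold change of -0.36 (adjusted p = 0.00748, standard error 0.0666), and -0.23 with the correction (adjusted p = 0.00102). FDPS has 8 named pseudogenes, and 693 of its 3718 exonic bases overlap the antisense gene RUSC1-AS1, itself lower at a log2 fold change of -1.09 (adjusted p = 0.00634) and at most 2.07 CPM. MVK (ENSG00000110921, chromosome 12, 109573255 to 109598125, plus strand), which encodes mevalonate kinase, was at 44, 47.3 and 42.2 CPM in control cells and 38.9, 32.5 and 35.4 CPM with overexpression. The groups were apart, but by less than in MVD, with a log2 fold change of -0.32 (adjusted p = 0.0231, standard error 0.0814). With the correction it was -0.13 (adjusted p = 0.0906).

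The 4 other early genes were not called. ACAT2, which condenses acetyl-CoA to acetoacetyl-CoA, had a log2 fold change of -0.20 (95% interval -0.35 to -0.05, adjusted p = 0.0634), and -0.24 with the correction (adjusted p = 0.00562). TCP1 overlaps 17.2% of the exonic bases of ACAT2 on the opposite strand. TCP1 was at 360 to 434 CPM over the 6 libraries, with a log2 fold change of 0.15 (adjusted p = 0.0933). PMVK, phosphomevalonate kinase, was at -0.27 (adjusted p = 0.113) with overlapping groups, and at -0.08 with the correction (adjusted p = 0.46). IDI1, the isomerase of isopentenyl diphosphate, was at -0.13 (adjusted p = 0.169) and at -0.34 with the correction (adjusted p = 0.00195). IDI1 has 3 named pseudogenes. HMGCS1, which makes HMG-CoA, had the opposite sign in the uncorrected data. It was at 143, 131 and 144 CPM in control cells and 149, 170 and 151 CPM with overexpression, a log2 fold change of 0.17 (95% interval 0.02 to 0.32, adjusted p = 0.0891), and at -0.06 with the correction (adjusted p = 0.428).

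**Figure D3:**
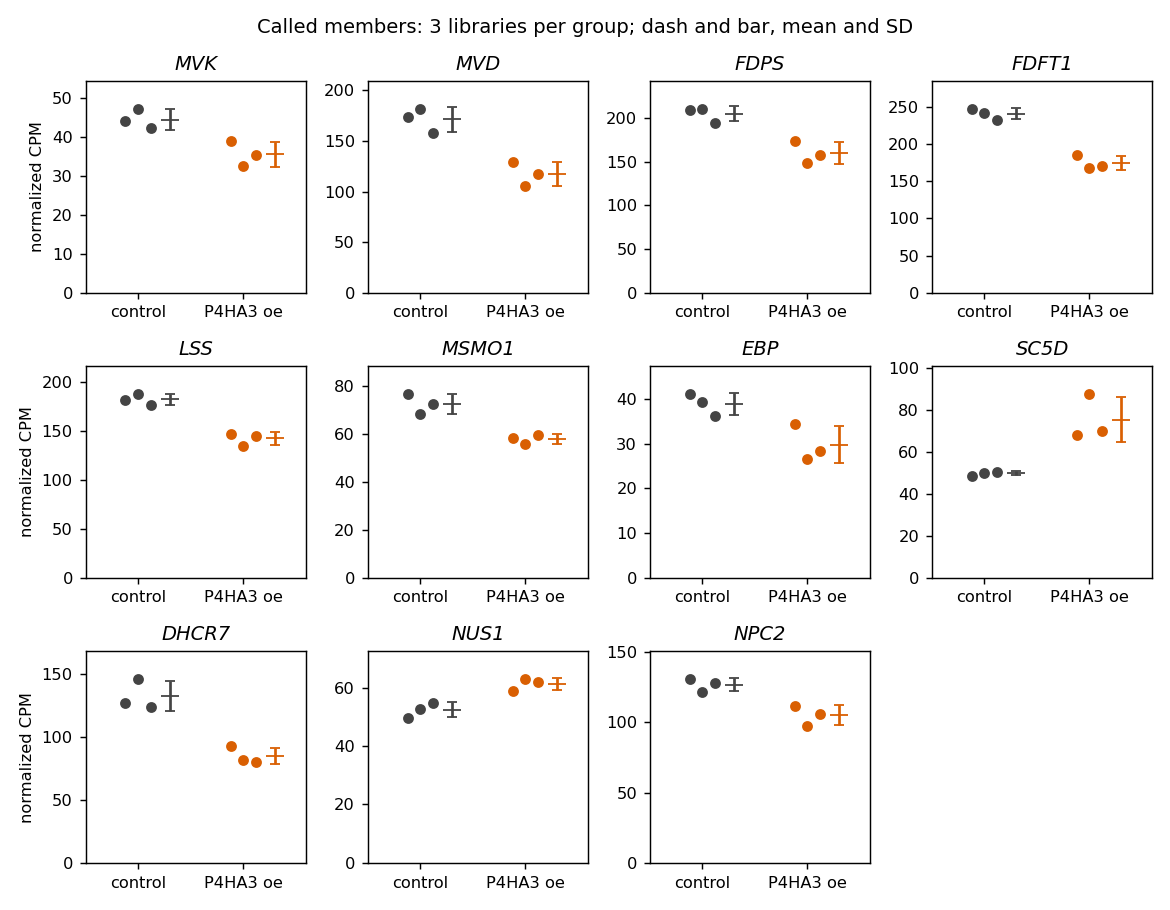
Normalized expression (y axis, CPM, starting at 0) of the 11 called members in each of the 3 control and 3 P4HA3 overexpression libraries (points), with the group mean and SD (dash and bar). The groups do not overlap in any panel, and SC5D and NUS1 are the members with higher values in the overexpression libraries.

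Among the 12 late sterol genes, 5 fell (FDFT1, LSS, MSMO1, EBP and DHCR7), SC5D rose and 6 were not called. The median log2 fold change was -0.29, and -0.25 with the correction, which called 7 lower and 2 higher. Without the correction, DHCR7 had the largest fall and SC5D the largest rise of all members. With it, MSMO1 (-0.53) had the largest fall and TM7SF2 (0.52) the largest rise.

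FDFT1 (ENSG00000079459, chromosome 8, 11795573 to 11839395, plus strand) encodes squalene synthase, the first enzyme that is committed to sterols. It was at 248, 242 and 233 CPM in control cells and 185, 168 and 171 CPM with overexpression. The lowest control library was far above the highest overexpression library. The log2 fold change was -0.46 (adjusted p = 0.00133, standard error 0.0574), and -0.50 with the correction (adjusted p = 2.97e-05). SQLE, squalene epoxidase and a rate-limiting step, did not follow it. SQLE was at 74.8, 75.8 and 76.0 CPM in control cells and 74.0, 78.9 and 77.9 CPM with overexpression, and the 95% interval of its log2 fold change of 0.03 ran from -0.10 to 0.15 (adjusted p = 0.749). LSS (ENSG00000160285, chromosome 21, 46188141 to 46228824, minus strand) encodes lanosterol synthase, which closes the sterol rings. Its values were 182, 188 and 177 CPM in control cells and 147, 135 and 145 CPM with overexpression. No library crossed between the groups, with a log2 fold change of -0.36 (adjusted p = 0.00335, standard error 0.0555), and -0.23 with the correction (adjusted p = 0.00148).

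The enzymes that remove methyl groups from lanosterol were uneven in level and in change. MSMO1 (ENSG00000052802, chromosome 4, 165327667 to 165343164, plus strand), the C4 methyl oxidase, was at 76.6, 68.2 and 72.4 CPM in control cells and 58.1, 55.5 and 59.4 CPM with overexpression. Its groups did not overlap, with a log2 fold change of -0.33 (adjusted p = 0.009, standard error 0.0639). It is GC-poor (37.4%), and with the correction the value was -0.53 (adjusted p = 0.000604). Its partners NSDHL and HSD17B7, which complete C4 demethylation, were not called, at -0.16 (adjusted p = 0.141) and -0.26 (adjusted p = 0.0678). With the correction HSD17B7 was at -0.28 (adjusted p = 0.0265). It was below control in all 3 overexpression libraries and has 2 named pseudogenes. CYP51A1, the lanosterol 14-demethylase, was at only 3.18 to 5.34 CPM over the 6 libraries. Its log2 fold change was -0.32 (95% interval -0.67 to 0.02, adjusted p = 0.148), and -0.48 with the correction (adjusted p = 0.0381). Of its 4171 exonic bases, 2844 are shared on the same strand with ENSG00000285772, a gene listed at 0 counts in every library, so that its counts are uncertain. CYP51A1 also has 3 named pseudogenes. TM7SF2 and LBR encode the sterol C14 reductases, LBR also being the lamin B receptor. TM7SF2 was at 1.97 to 2.45 CPM in control cells and 2.49 to 2.79 CPM with overexpression, a log2 fold change of 0.28 (adjusted p = 0.195) that was 0.52 with the correction (adjusted p = 0.0462). LBR was at 0.16 (adjusted p = 0.102), and at -0.06 with the correction. Per kilobase of canonical transcript, LBR had 14.1 CPM in control cells and TM7SF2 had 1.37 CPM.

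EBP, SC5D and DHCR7 act one after another near the end of the pathway. EBP (ENSG00000147155, chromosome X, 48521799 to 48528716, plus strand), the sterol isomerase, was at 41.2, 39.4 and 36.2 CPM in control cells and 34.5, 26.6 and 28.4 CPM with overexpression. The gap between the groups was small, with a log2 fold change of -0.38 (adjusted p = 0.0251, standard error 0.0999). A gene listed at 0 counts, ENSG00000286268, shares 644 of its 1768 exonic bases on the same strand. SC5D (ENSG00000109929, chromosome 11, 121292681 to 121313410, plus strand), the sterol C5 desaturase, was at 48.8, 50.2 and 50.7 CPM in control cells and 68.2, 87.9 and 70.3 CPM with overexpression. Every overexpression library was above every control library, and replicate 2 was the highest. The mean was 151% of control (49.9 ± 0.962 and 75.4 ± 10.8 CPM, SD, n = 3), which made the log2 fold change 0.60 (adjusted p = 0.00319, standard error 0.092). SC5D is the most GC-poor tested member (36.9%), and with the correction the value was 0.31 (adjusted p = 0.00255). DHCR7 (ENSG00000172893, chromosome 11, 71428193 to 71452868, minus strand), the reductase that makes cholesterol from 7-dehydrocholesterol, was at 127, 146 and 124 CPM in control cells and 92.5, 81.8 and 80.3 CPM with overexpression. The groups were well apart, and the mean was 64.3% of control (132 ± 12 and 84.9 ± 6.64 CPM, SD, n = 3). The log2 fold change was -0.64 (adjusted p = 0.00133, standard error 0.0792), and -0.48 with the correction (adjusted p = 0.000228). The enzyme that makes 7-dehydrocholesterol thus rose in RNA while the enzyme that uses it fell.

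**Figure D4:**
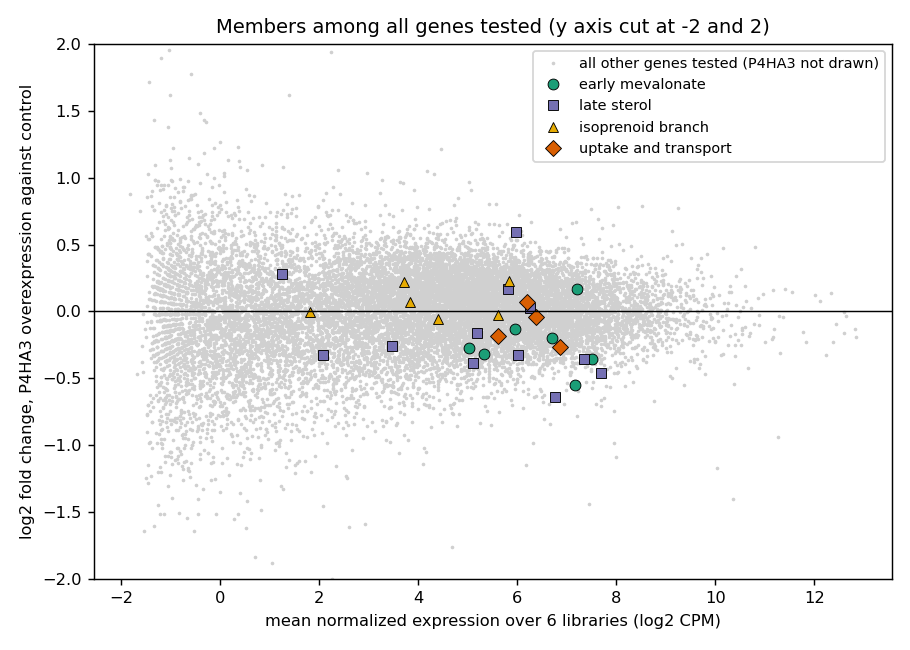
Log2 fold change (y axis, limited to -2 to 2) against mean normalized expression over the 6 libraries (x axis, log2 CPM) for all genes tested except P4HA3 (grey) and the 29 tested members (symbols by block). Early mevalonate and late sterol genes lie mostly below 0, SC5D at 0.60 is the highest member, and isoprenoid branch genes lie between -0.05 and 0.23.

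Of the 6 isoprenoid branch genes, 0 fell, NUS1 rose and 5 were not called, with a median log2 fold change of 0.03 (-0.03 with the correction). DESeq2 and limma-voom gave the same counts. At an unadjusted p under 0.05 in edgeR 0 were lower and 2 higher, against 5854 of all 15130 genes in either direction. NUS1 (ENSG00000153989, chromosome 6, 117675469 to 117710727, plus strand) encodes the Nogo-B receptor, a subunit of the cis-prenyltransferase that makes dolichol. It was at 49.7, 52.7 and 54.9 CPM in control cells and 59.0, 63.0 and 61.9 CPM with overexpression. The groups did not overlap, with a log2 fold change of 0.23 (adjusted p = 0.0324, standard error 0.0632). NUS1 is GC-poor (38.0%) and has 4 named pseudogenes, and with the correction the value was -0.01 (adjusted p = 0.926). DHDDS, the catalytic partner of NUS1 in the same enzyme, was at -0.03 (95% interval -0.17 to 0.12, adjusted p = 0.804). Both subunits of the enzyme that builds the ubiquinone side chain were not called, PDSS1 at 0.22 (adjusted p = 0.0888) and PDSS2 at 0.07 (adjusted p = 0.592). PDSS1 was above control in all 3 overexpression libraries and has 2 named pseudogenes. COQ2, which attaches that side chain to the ring, was at -0.05 (95% interval -0.30 to 0.19, adjusted p = 0.737). GGPS1, geranylgeranyl diphosphate synthase, was at 2.63 to 4.30 CPM over the 6 libraries with overlapping groups (log2 fold change -0.01, 95% interval -0.44 to 0.42, adjusted p = 0.983). The data are compatible with a change of GGPS1 anywhere within that interval. Of its 3809 exonic bases, 1422 are shared on the same strand with ENSG00000285053, which was at 1.41 to 2.37 CPM.

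Among the uptake and transport genes, 4 of 5 were tested, of which NPC2 fell and 3 were not called, with a median of -0.12. With the correction the median was -0.22, and NPC2 and LRP8 were called lower. At an unadjusted p under 0.05 in edgeR 2 were lower and 0 higher, against 5854 of all 15130 genes in either direction. NPC2 (ENSG00000119655, chromosome 14, 74476192 to 74494177, minus strand) encodes the soluble lysosomal protein that hands cholesterol to NPC1. It was at 131, 122 and 128 CPM in control cells and 112, 97.8 and 106 CPM with overexpression. The groups were apart, with a log2 fold change of -0.27 (adjusted p = 0.0189, standard error 0.0644), and the value was -0.27 with the correction as well (adjusted p = 0.000966). NPC1, the membrane partner of NPC2, was at -0.04 (95% interval -0.18 to 0.10, adjusted p = 0.641). LRP8, an apolipoprotein E receptor, was at 51.8, 52.8 and 52.4 CPM in control cells and 43.8, 48.3 and 45.9 CPM with overexpression. Its groups did not overlap, the log2 fold change was -0.19 (95% interval -0.32 to -0.05, adjusted p = 0.0568), and with the correction it was -0.28 (adjusted p = 0.0016). SOAT1, which esterifies cholesterol for storage, was at 0.07 (adjusted p = 0.405), and at -0.16 with the correction (adjusted p = 0.0505). STARD4 was at 0.141 to 0.245 CPM in control cells and 0.215 to 0.445 CPM with overexpression, too low for the test.

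Levels between genes were compared per kilobase of canonical transcript. In control cells NPC2 (155 CPM per kilobase), FDPS (145), FDFT1 (118) and MVD (95.3) had the highest levels of the members, and STARD4 (0.0396), GGPS1 (1.22), TM7SF2 (1.37) and CYP51A1 (1.49) the lowest. The levels of GGPS1 and CYP51A1 are uncertain, because many of their exonic bases (37.3% and 68.2%) are shared on the same strand with another listed gene. NPC2, FDPS, FDFT1 and MVD were at 129, 113, 85.8 and 65.0 CPM per kilobase with overexpression. All 4 were called lower, against 11.4% of all genes tested, while ACAT2, next in level at 73 in control cells, was not called. Calls among all genes of like level were not counted, and a link between level and call was not tested. The lowest tested members, GGPS1, TM7SF2 and CYP51A1, also had the widest intervals.

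Other genes of the same pathways were counted from 4 lists. SREBP control had 4 lower and 1 higher of 7, where 11.4% and 9.36% of all genes were called, with a median of -0.35. With the correction the 4 lower calls were kept, the higher call of MBTPS2 was lost (0.25 and 0.05, adjusted p = 0.468) and the median was -0.16. SREBF2, which encodes SREBP-2, was at 279, 289 and 273 CPM in control cells and 191, 178 and 200 CPM with overexpression (log2 fold change -0.56, adjusted p = 0.000664). SREBF1 had the largest change of that list, from 327, 355 and 309 CPM to 178, 148 and 174 CPM (-0.99, adjusted p = 0.000242). Protein prenylation had 3 higher of 10 by edgeR, 2 by DESeq2 and 1 by limma-voom, with CHML, a Rab escort protein, at 0.68 (adjusted p = 0.0482) and overlapping groups. Other ubiquinone synthesis had 1 lower of 9, COQ8B (-0.33, adjusted p = 0.02), and other dolichol synthesis had 1 lower of 7, DPM3 (-0.45, adjusted p = 0.0265), a subunit of dolichol phosphate mannose synthase. With the correction all 3 prenylation calls (CHML, RABGGTB and ZMPSTE24) and those of COQ8B and DPM3 were lost, while those of SREBF1 and SREBF2 stood.

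The calls differed in how far they rested on single libraries. MVD, FDFT1, LSS, SC5D and DHCR7 were called in all 14 alternatives run for each member. The other 6 called members lost their call without at least 1 library. MVK, EBP and NPC2 lost it in the fits that left out control replicate 1, control replicate 2 or overexpression replicate 3, NUS1 in the same 3 fits and without overexpression replicate 2, FDPS without control replicate 2 (adjusted p = 0.0554) and MSMO1 without control replicate 1 (adjusted p = 0.0607). The number of members called lower was 5 without control replicate 1 and 5 without control replicate 2, and the number called higher was 1 in each of these fits. Across all genes the calls fell to 229 higher and 552 lower without control replicate 1, to 163 higher and 371 lower without control replicate 2 and to 275 higher and 629 lower without overexpression replicate 3. They rose to 2814 higher and 2716 lower without overexpression replicate 1. The median over the members stayed between -0.19 and -0.12 in all fits.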

How the data were processed

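Poly-A RNA was sequenced from 3 control and 3 P4HA3 overexpression samples of SiHa PR cells. Per the study's methods the libraries were strand-specific (dUTP), reads were aligned to GRCh38 with STAR and counted on genes with HTSeq, while the processing notes of the submitters name HISAT2. The strand setting of the counting was not given in the sources used here. The deposited values are raw counts made by the authors for 60664 genes, without normalization. Nothing says that samples of a group came from separate cultures, so p-values measure the spread between these samples, which may be technical.

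Differences were tested with edgeR 4.0.16 in R 4.3.3 (filterByExpr with a minimum count of 10, TMM factors, glmQLFit and glmQLFTest, two-sided, no covariate). P-values were adjusted by Benjamini-Hochberg over the 15130 genes tested, with a threshold of 0.05. Expression is TMM-normalized CPM. Standard errors are the unshrunk log2 fold change divided by the root of F, and intervals are at 95%. The common biological coefficient of variation was 7.66%, and the lowest tested members had the widest intervals. Symbols, positions, lengths and GC content came from GENCODE, which matched 60463 of the identifiers. The test was checked on simulated data.

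The alternatives were DESeq2 1.42.0, limma-voom (limma 3.58.1), RLE factors, library sizes alone, no filter on low counts, an adjusted p under 0.01, a GC content and transcript length offset (mgcv 1.9.3), the replicate number as a block, the block with that offset, and each library left out in turn. All 30 members are named, with every library for called members and for the member of each block with the largest change. SREBF2, P4HA3 and the called gene with the largest change of each of 4 other lists are named too, and some genes and lists of the rule are not reported here. Library values of HMGCS1, SQLE and LRP8, and MSMO1 as a printed promoter, were picked with their values in view. The members and lists were chosen with earlier results of these data known, and the fall of lipid synthesis genes was among those results, so it is no independent support.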

Additional observations from a re-analysis of the deposited data

How the results depend on the processing

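The number of members called lower was 9 and stayed within 1.5 times of that in the fits with DESeq2 (9), without a filter on low counts (10), at an adjusted p under 0.01 (6), with the GC content and length correction (13) and with the replicate number as a block (11). It was 14 with the replicate block and the correction together, and between 5 and 11 when each library was left out in turn. The number called higher was 2, fell to 1 at an adjusted p under 0.01, and was between 1 and 3 when each library was left out. Same-numbered samples of the groups had correlations of 0.334, -0.0841 and 0.0208 between their deviations from the group means. Differently numbered samples had correlations from -0.414 (control 3 with overexpression 1) to 0.382 (control 3 with overexpression 2). The main fit was set without the block because the numbers may be names only. These correlations do not decide whether the samples were paired, since the deviations of single libraries also followed GC content. The block raised the calls across all genes from 1416 higher and 1731 lower to 2138 higher and 2175 lower.

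Of the 29 tested members, 9 changed sign in at least 1 alternative, and NUS1 was the only called one among them. With the correction, and with the correction and the block together, log2 fold changes were -0.058 and -0.056 for HMGCS1, -0.025 and -0.025 for SQLE, -0.058 and -0.058 for LBR, 0.030 and 0.030 for DHDDS, -0.009 and -0.010 for NUS1, -0.057 and -0.057 for PDSS2, and -0.16 and -0.16 for SOAT1. GGPS1 was at 0.010 with library sizes alone, at 0.003 without a filter, and between -0.18 and 0.11 with a library left out. DHDDS was between -0.063 and 0.014 and COQ2 between -0.19 and 0.022 with a library left out. The cause of these sign changes was not tested. GGPS1, TM7SF2 and CYP51A1 had 42 to 130 counts per library and the widest intervals, and STARD4 had too few counts for the test. GGPS1 and CYP51A1 share exonic bases on the same strand with other listed genes. The part of depth and of shared exons in these low counts was not tested.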
